A study of Gallus gallus with 2 samples.

Results

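Unnamed loci are stretches of the chicken genome where transcripts were assembled from the RNA-Seq reads of skin but no gene name was attached in the deposited table. Those described here carry no name and lie in a deposited interval of at least 2000 bp. Of 22853 loci in the table, 5301 were unnamed and 1875 of these reached 2000 bp. Of these, 3 on chromosome 16 and 7 in a stretch of chromosome 20 were left out by the position rule, and no estimate among the others had failed, which left 1865 members on 27 chromosomes. The skin came from 16 week old Lueyang females with black skin (BS) or white skin (WS), as a piece 8 mm wide from the left back. For each color, RNA of 3 out of 5 hens was pooled into 1 library, so that there was no replicate, no test was possible and each difference below is one between 2 libraries. Expression is given in FPKM, fragments per kilobase of transcript and scaled to the mapped reads of the library, a level that is corrected for length and depth. The files used here hold no read counts, so the number of reads behind a single FPKM value and its counting error are unknown.

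As background, an assembled transcript without a name can be a long noncoding RNA, an unannotated protein-coding gene, an untranslated end or intron of a known gene that was assembled apart from it, or a piece of unspliced RNA. Long noncoding RNAs are transcribed like messenger RNAs but carry no long reading frame, are usually less abundant than messenger RNAs, and often start close to a protein-coding gene. Which of these a given member is cannot be read from the deposited columns, which give neither strand nor exons. The library protocol lists no step that marks the strand, so reads of overlapping loci on opposite strands cannot be told apart. No sequence is printed, since no genome of the build used here was at hand. The submitters' processing notes name galGal4, but the last locus of chromosome 1 ends at 200985987 in the table, which lies past the last gene of that chromosome in the newer assembly GRCg7b, and the build stays unsettled. Coordinates are therefore those of the table.

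The skin label was checked against markers. Of 8 keratinocyte markers, *KRT14*, *KRT15*, *TP63*, *CDH1*, *DSP* and *PKP3* were above 0 and all 6 were lower in BS, 4 of them by at least 2-fold, with a summed level of 1393 FPKM in BS against 2515 in WS. The 5 of 8 melanocyte markers above 0 (*TYR*, *DCT*, *EDNRB2*, *MLPH* and *OCA2*) were each at least 2-fold higher in BS, with sums of 121 FPKM in BS against 30.1 in WS. *PMEL*, *MLANA*, *TYRP1*, *KRT5* and *KRT75* were listed at 0 in both libraries and lie on sequences, chromosome Z among them, on which every locus is at 0 and which hold no unnamed locus. All 4 skeletal muscle markers in the table were higher in BS (sums of 20230 FPKM in BS against 10619 in WS), and both red blood cell markers were at least 2-fold lower (1505 FPKM in BS against 3745 in WS). Of 4 fibroblast markers in the table, 2 were higher and 2 lower, *COL1A2* by at least 2-fold, with sums of 3897 FPKM in BS against 7910 in WS. In bulk skin, fewer cells of a type and less RNA per cell cannot be told apart. How much of the differences between members follows these cell type markers was not tested.

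The interval that the table gives for a locus is not always its own. Among the members, 1000 had an interval that no other locus had, with a median span of 3243.5 bp and a longest span of 132405 bp. The other 865 members carried exactly the interval of 1 or more further loci, with up to 18 loci in 1 interval, and the median span of their 485 intervals was 48017 bp. For these 865 the span is thus that of a group of loci and not of the unnamed transcript. A gene symbol was part of the interval for 554 of them, only an identifier or merged name for 92, and only unnamed loci for 219. Intervals in the table were either identical or separate, so that the 1000 members with an interval of their own overlapped nothing else. Over all members the median span was 7899 bp and the longest 1069327 bp. Results are given for both kinds of member side by side.

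Most members were expressed weakly but in both libraries. Of 1865, 1844 were above 0 in both, 10 in BS alone, 7 in WS alone and 4 in neither. The median member had 1.17 FPKM in BS against 1.27 in WS, against medians of 8.86 and 8.82 FPKM for 12077 loci with a gene symbol and the same minimum span. Shorter unnamed loci (3403 loci under 2000 bp) had medians of 0.870 FPKM in BS against 1.16 in WS. The middle 90% of members ranged from 0.277 to 21.7 FPKM in BS and from 0.273 to 25.9 FPKM in WS. In the higher library, 1316 members (70.6%) reached 1 FPKM, compared with 77.1% of the gene-symbol loci and 67.8% of the shorter unnamed loci. The gene-symbol loci include those on sequences at 0 throughout, which hold no unnamed locus, and 1491 of the 12077 were at 0 in both libraries. These zeros lower the medians and the share of the gene-symbol loci. Nor were the 2 left-out regions taken out of them. Levels thinned out quickly above that, with 357 members at 5 FPKM or more, 125 at 20 FPKM or more and 41 at 100 FPKM or more.

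Levels in BS and WS followed each other less closely for members than for named genes. Over the 1316 members with at least 1 FPKM the Spearman correlation between libraries was 0.67, over 9306 gene-symbol loci of the same minimum span 0.95, and over 2306 shorter unnamed loci 0.48. Members with an interval of their own reached 0.75 (n = 654) and members in shared intervals 0.58 (n = 662). The Pearson correlations of log2(FPKM + 1) lay closer together. They were 0.90 for members, 0.95 for gene-symbol loci and 0.87 for shorter unnamed loci. For members with an interval of their own the Pearson correlation was 0.94, and in shared intervals 0.84. These correlations are across loci of the same 2 libraries, which are not independent replicates, and levels of weak loci hold more counting error.

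**Figure D1:**
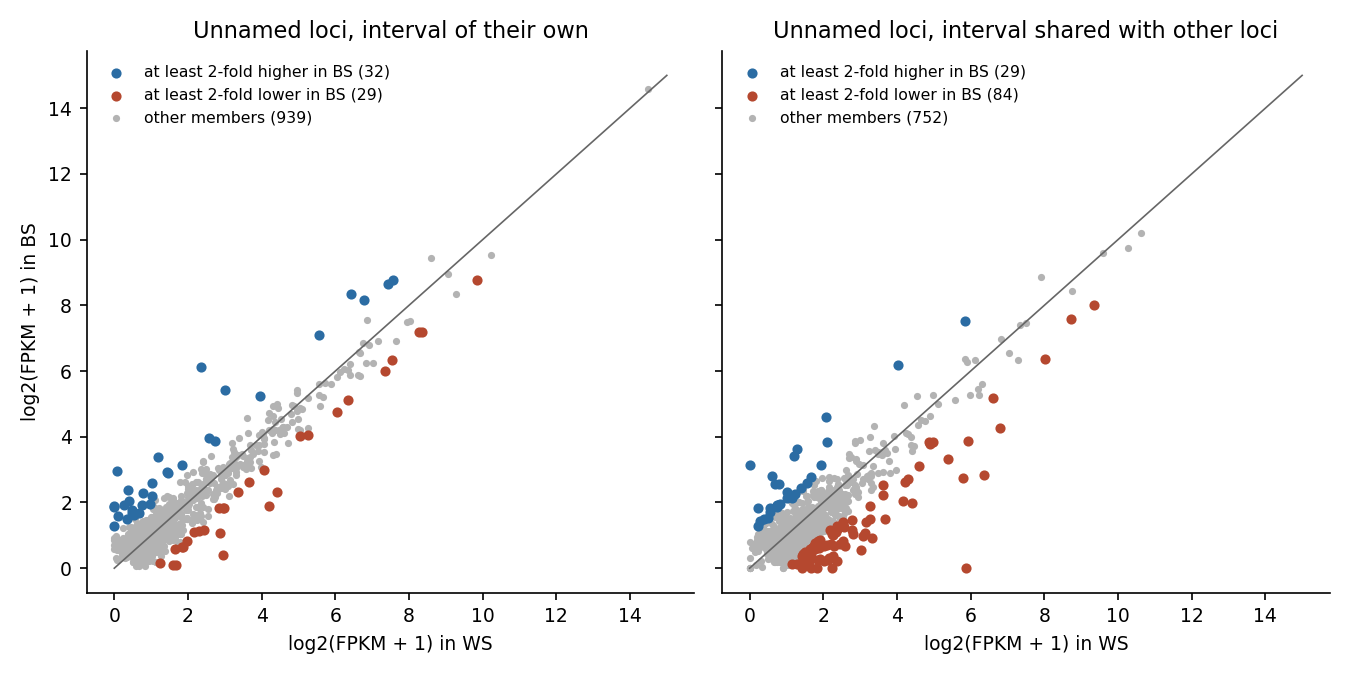
Each point is 1 member, with log2(FPKM + 1) in WS on the horizontal axis and in BS on the vertical axis, for 1000 members with an interval of their own (left) and 865 in shared intervals (right). Points at least 2-fold higher in BS (32 and 29) and at least 2-fold lower (29 and 84) are colored, and the line marks equal levels. On the left the colored points lie on both sides in like number, and on the right more lie below the line.

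More members were lower than higher in BS. Fold changes are log2 ratios of BS over WS after 1 FPKM was added to both, a scale that understates weak loci, and only loci that reached 1 FPKM in BS or WS were counted. Of 1316 members, 61 (4.64%) were higher in BS by 2-fold or more and 113 (8.59%) were lower by as much. Among all 15020 loci so tested, 4.61% were at least 2-fold higher and 5.69% at least 2-fold lower, so that the share of higher members was near that of all loci and the share of lower members above it. By any amount, 535 members were higher and 781 lower, compared with 6593 and 8427 of all loci. The median log2 fold change was −0.14 for members and −0.06 for all loci.

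The excess of lower members lay in shared intervals. Among members with an interval of their own, 32 (4.89%) were higher by 2-fold or more in BS and 29 (4.43%) lower, with a median log2 fold change of −0.07. Among members in shared intervals, 29 (4.38%) were higher and 84 (12.7%) lower, with a median of −0.22. Where the interval was shared with a gene symbol, 15 were higher and 61 lower among 427, where it was shared with other names 4 were higher and 9 lower among 65, and where it held only unnamed loci 10 were higher and 14 lower among 170. Among 427 gene symbols in these same intervals with at least 1 FPKM (of 471), 7 were at least 2-fold higher and 8 lower, although by any amount 170 were higher and 257 lower, with a median of −0.096. Gene-symbol loci of at least 2000 bp had few such differences, with 236 (2.54%) higher and 192 (2.06%) lower. Unnamed loci under 2000 bp leaned further to WS than the members, with 166 (7.20%) higher in BS and 408 (17.7%) lower. Nearly all of these had an interval of their own (166 higher and 407 lower among 2300). A lean to WS was thus not limited to shared intervals.

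**Figure D2:**
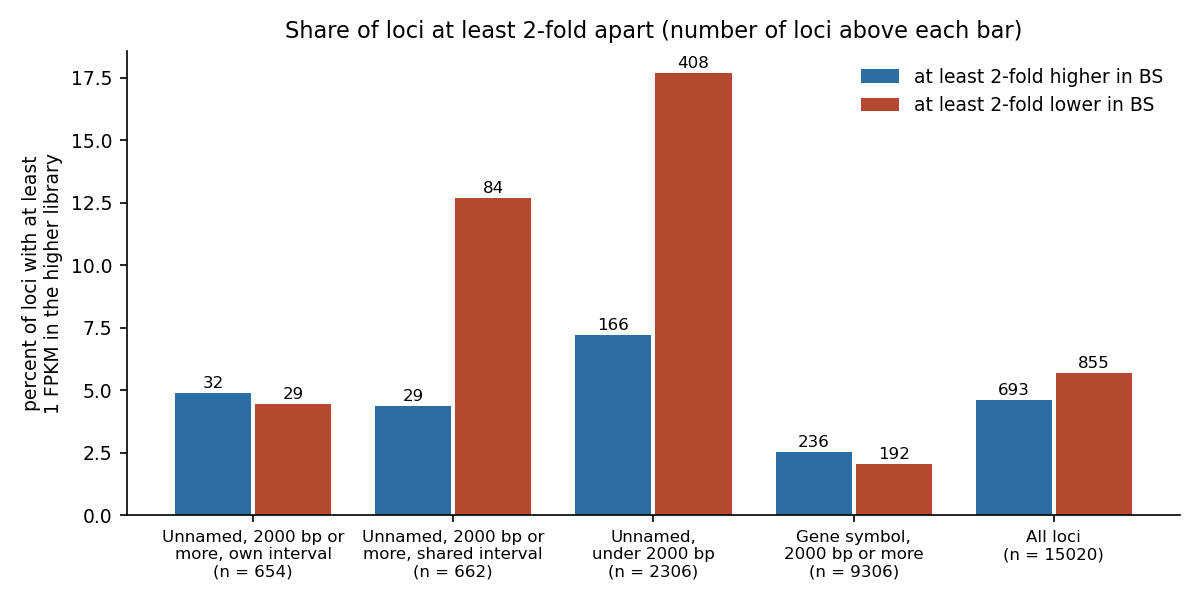
Bars give the percentage of loci, among those reaching 1 FPKM in BS or WS, that were higher by 2-fold or more in BS (blue) or lower by as much (red), with the number of loci above each bar. For unnamed loci of 2000 bp or more, the bars are near equal with an interval of their own (32 and 29 loci) and unequal in shared intervals (29 and 84 loci).

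The scaling of the libraries changed this split. With BS scaled so that the median ratio was 1, that the upper quartiles matched, or that totals matched once the 50 most abundant loci were set aside (factors on BS of 0.06, 0.08 and 0.13 on the log2 scale), the counts of members higher and lower in BS were 72 and 103, 77 and 102, and 80 and 94. Over all loci they were 780 and 776, 811 and 744, and 883 and 682, against 693 and 855 as deposited. In the last scaling the median over all loci moved by more than 0.1, to 0.06, and that of the members to −0.027. Relative to the median over all loci the members stayed lower, by −0.07 as deposited and by −0.08, −0.08 and −0.09 under the 3 scalings. Members in shared intervals kept fewer higher than lower calls (36 and 79, 40 and 79, 42 and 72), whereas those with their own interval, already slightly more often higher, had more higher than lower calls by a wider margin (36 and 24, 37 and 23, 38 and 22), and their median was 0.033 in the last scaling.

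Among members higher in BS, XLOC_011784 on chromosome 25 (chr25:1182629-1184702) was furthest apart on this scale, with 69.2 FPKM in BS against 4.11 in WS, a log2 fold change of 3.78. It had an interval of its own, 72230 bp from *FSCB*, the nearest gene symbol, which had 9.22 FPKM in BS against 5.45 in WS. XLOC_001393 (chr1:28682250-28686198) stood at 6.84 FPKM in BS against 0.0532 in WS (log2 fold change 2.90). If 0.1 FPKM is added in place of 1, XLOC_001393 comes before XLOC_011784, at 5.50 and 4.04. The locus XLOC_001393 lay 27576 bp from *C7ORF53*, which had 10.7 FPKM in BS against 5.07 in WS. XLOC_011979 (chr26:1475693-1500741) had 41.7 FPKM in BS against 6.99 in WS (2.42) and lay 1511 bp from *SOX13*, a transcription factor of the SOX family, which had 9.29 FPKM in BS against 4.88 in WS. XLOC_002179 (chr1:152713631-152715949) was the most abundant of those furthest apart in this direction, with 321 FPKM in BS against 85.2 in WS (1.90). It lay 464766 bp from *GPC5*, a glypican of the cell surface that stood at 2.28 FPKM in BS against 2.75 in WS. XLOC_005142 (chr13:10648337-10653619) had 9.40 FPKM in BS against 1.28 in WS (2.19), close to a serine protease inhibitor gene described below. These 5 overlapped no other locus.

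The other 5 of the 10 members furthest higher shared an interval. XLOC_011893 (chr25:1906830-1924161) had 23.4 FPKM in BS against 3.20 in WS (log2 fold change 2.54), and XLOC_011894, the only other locus in this interval, had 184 FPKM in BS against 56.3 in WS (1.69). The nearest gene symbol, *SELENBP1*, a selenium-binding protein gene 3216 bp away, had 28.6 FPKM in BS against 26.6 in WS. This was the only interval with 2 members at least 2-fold higher. XLOC_020219 (chr9:18577329-18581600) had 11.4 FPKM in BS against 1.45 in WS (2.34), 130 bp from *USP13*, a deubiquitinating enzyme with 15.1 FPKM in BS against 9.43 in WS. XLOC_014413 (chr3:28583433-28603506) shared its interval with *FOSL2*, an AP-1 transcription factor, and had 9.74 FPKM in BS against 1.30 in WS (2.23), while *FOSL2* had 28.8 FPKM in BS against 38.8 in WS. XLOC_002732 (chr1:65427610-65434426) had 6.01 FPKM in BS against 0.533 in WS (2.19) in the interval of *MGST1*, a microsomal glutathione transferase with 69.6 FPKM in BS against 62.1 in WS. XLOC_008423 (chr2:92810553-92919564) had 71.8 FPKM in BS against 15.3 in WS (2.16), and *MBP*, which encodes myelin basic protein and was the only other locus there, had 122 FPKM in BS against 50.9 in WS (1.25). Of these, only the *MBP* interval held a gene symbol that was at least 2-fold higher as well.

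**Figure D3:**
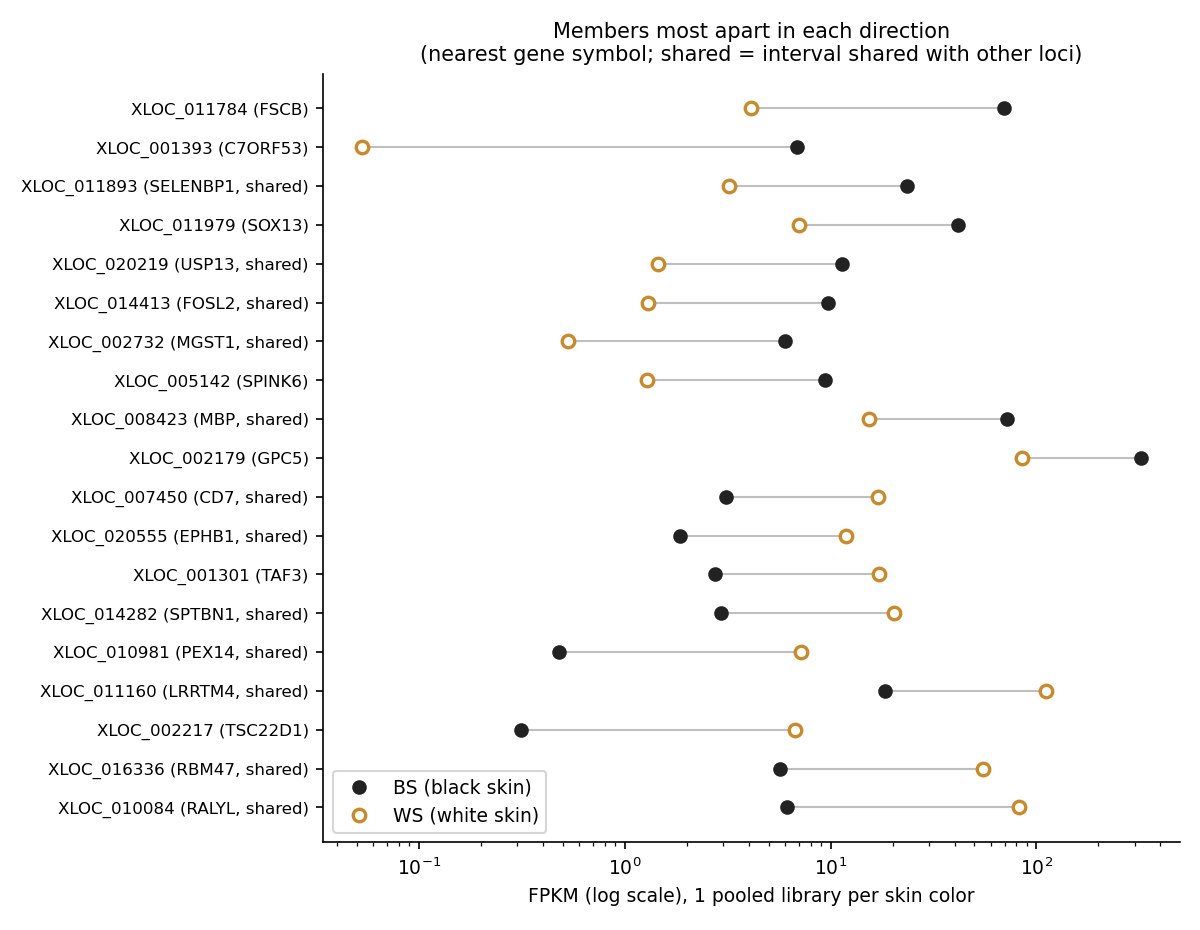
FPKM on a log scale for the 10 members furthest higher in BS (top) and 9 of the 10 furthest lower (bottom), BS as filled and WS as open circles, with the nearest gene symbol in brackets and "shared" where other loci have the same interval. Each circle is 1 pooled library. Of the 9 lower members shown, XLOC_001301 and XLOC_002217 alone have an interval of their own.

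Of the 10 members furthest lower in BS, 8 lay in a shared interval. XLOC_010084 (chr2:126940896-127322707) had 6.16 FPKM in BS against 81.9 in WS (log2 fold change −3.53) in the interval of *RALYL*, a gene for a predicted RNA-binding protein. XLOC_016336 (chr4:70771530-70848321) had 5.67 FPKM in BS against 54.8 in WS (−3.06) in the interval of *RBM47*, an RNA-binding protein of epithelia, at 9.15 FPKM in BS against 16.3 in WS. XLOC_011160 (chr22:3129269-3331447) had 18.3 FPKM in BS against 111 in WS (−2.54), far above its interval partner *LRRTM4*, a synaptic membrane protein gene at 1.22 FPKM in BS against 0.917 in WS. XLOC_020555 (chr9:4729544-4829312) had 1.85 FPKM in BS against 11.9 in WS (−2.18), beside *EPHB1*, an ephrin receptor with 25.3 FPKM in BS against 24.6 in WS. In these intervals the unnamed locus was at least 4-fold lower in BS while the gene symbol was less than 2-fold apart, apart from *RALYL*.

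XLOC_010981 (chr21:3815503-3949378) had 0.479 FPKM in BS against 7.16 in WS (log2 fold change −2.46), 10656 bp from *PEX14*, a peroxisome protein gene with 20.5 FPKM in BS against 27.5 in WS. Within its interval, XLOC_010882, a locus with a merged name, had 15.9 FPKM in BS against 32.3 in WS (−0.98). The members XLOC_010979 (−0.72) and XLOC_010980 (−1.02) were lower there too, and XLOC_010754, named by an identifier, had 0.0997 FPKM in BS against 0 in WS. XLOC_007450 (chr18:3647569-3845596) had 3.09 FPKM in BS against 16.9 in WS (−2.13) in the interval of *CD7*, a T cell surface protein gene with 1.32 FPKM in BS against 0.863 in WS. The most abundant locus there, XLOC_007098, whose name had been turned into a date, had 65.0 FPKM in BS against 55.8 in WS. In this interval the member XLOC_007451 was lower in BS too (−1.08), but loci named by an identifier went the other way. XLOC_007294 had 39.4 FPKM in BS against 10.9 in WS (1.76), and XLOC_007096 had 37.0 FPKM in BS against 15.5 in WS (1.20). The remaining 2 had an interval of their own. XLOC_002217 (chr1:171658148-171663136) stood at 0.314 FPKM in BS against 6.69 in WS (−2.55), 109836 bp from *TSC22D1*, a transcriptional regulator with 14.3 FPKM in BS against 15.4 in WS. XLOC_001301 (chr1:4311115-4322416) had 2.73 FPKM in BS against 17.3 in WS (−2.29), 1407 bp from *TAF3*, a subunit of the general transcription factor TFIID with 59.2 FPKM in BS against 52.4 in WS.

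Members that share an interval could be set beside each other. Of the 485 shared intervals, 216 held 2 or more members and the fullest held 13. In 46 intervals with at least 3 members at 1 FPKM or more (194 members), all members counted were lower in BS in 15 and all were higher in 3, and more members were lower than higher in 28 and more were higher in 15. A member at least 2-fold lower was found in 67 intervals and a member at least 2-fold higher in 28, and 13 intervals held 2 or more that were lower. Members of an interval share a stretch of the genome and can share reads, so that they are not independent of each other.

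In the *RALYL* interval all 7 members were lower in BS, and 6 of them reached 1 FPKM. Beside XLOC_010084, XLOC_010083 had 0.729 FPKM in BS against 2.77 in WS, XLOC_010087 had 0.382 FPKM in BS against 1.84 in WS, and XLOC_010082 had 0.0991 FPKM in BS against 1.21 in WS. *RALYL* itself had 0.867 FPKM in BS against 3.47 in WS (log2 fold change −1.26), so named and unnamed loci were lower together. The *SPTBN1* interval (chr3:2617071-2740403) held 5 members that were all lower in BS. XLOC_014282 had 2.95 FPKM in BS against 20.4 in WS (−2.44) and XLOC_014278 0.192 FPKM in BS against 3.38 in WS (−1.88), whereas *SPTBN1*, a spectrin of the membrane skeleton, had 184 FPKM in BS against 208 in WS.

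The fullest interval was that of *ZBTB20*, a zinc finger transcription factor (chr1:85867096-86260711), with 13 members of which 10 were lower in BS and 4 at least 2-fold lower. XLOC_002885 had 0.534 FPKM in BS against 2.67 in WS, XLOC_002877 0.574 FPKM in BS against 2.31 in WS, and XLOC_002882 0.502 FPKM in BS against 2.09 in WS. XLOC_002883, counted among these 4, was listed at 0 in BS with 1.70 FPKM in WS. *ZBTB20* had 9.77 FPKM in BS against 11.9 in WS. An interval without any name (chr2:52221632-52262158), 1033 bp from *SEC61G*, a subunit of the channel that moves proteins into the endoplasmic reticulum, held 8 members that were all lower in BS. XLOC_009764 had 5.54 FPKM in BS against 18.7 in WS (log2 fold change −1.59) and XLOC_009763 5.03 FPKM in BS against 8.83 in WS, while *SEC61G* had 68.9 FPKM in BS against 62.5 in WS. This interval was chosen after its values were seen.

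A single member held most of the members' signal. XLOC_011860 (chr25:1217020-1229373) had 24438.5 FPKM in BS against 23080.7 in WS, a log2 fold change of 0.08. It made up 58.7% of the summed FPKM of all members in BS and 52.8% in WS. All members together took 1.86% of the summed FPKM of the table in BS and 1.22% in WS, and without this locus 0.770% in BS and 0.575% in WS. The summed FPKM of the members themselves was 41655 in BS against 43688 in WS. Their larger share in BS therefore goes with a lower sum over the whole table in BS, not with higher levels of the members. It has an interval of its own, 27559 bp from *FSCB*.

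The next most abundant members were far below it. XLOC_003424 (chr1:200070515-200502911) had 1176 FPKM in BS against 1576 in WS in an interval of 18 loci that also holds *RAB6A*, a GTPase of the Golgi apparatus with 159 FPKM in BS against 171 in WS. XLOC_013461 (chr3:91173851-91238762) had 855 FPKM in BS against 1243 in WS in the interval of the glutathione transferase genes *GSTA* and *GSTA3*. XLOC_004588 (chr12:1141454-1395157) had 772 FPKM in both, and *NPRL2* in its interval, a regulator of the growth kinase mTORC1, had 24.3 FPKM in BS against 22.9 in WS. Of those with their own interval, XLOC_005157 (chr13:12358672-12360704) had 738 FPKM in BS against 1201 in WS, and XLOC_002191 (chr1:159049520-159082893) had 700 FPKM in BS against 385 in WS (log2 fold change 0.86), 5618 bp from *UCHL3*, a ubiquitin hydrolase with 31.9 FPKM in BS against 22.1 in WS. XLOC_018082 (chr6:4093972-4100547) was the only one of these 7 at least 2-fold apart, with 440 FPKM in BS against 913 in WS (−1.05), and it fell short of 2-fold under each of the 3 scalings (−0.99, −0.97 and −0.92).

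Further abundant members with an interval of their own were 2-fold apart and were picked out after their values were seen. XLOC_011797 on chromosome 25, 2554 bp from the RNA editing gene *ADAR*, had 433 FPKM in BS against 187 in WS (log2 fold change 1.20). XLOC_016556 on chromosome 5 had 398 FPKM in BS against 170 in WS (1.22), and XLOC_015607 on chromosome 4 had 289 FPKM in BS against 110 in WS (1.39). XLOC_005193 on chromosome 13 had 137 FPKM in BS against 46.5 in WS (1.54). In the other direction, XLOC_013272 on chromosome 3, 7251 bp from *PERP*, which encodes a protein of desmosomes, had 146 FPKM in BS against 307 in WS (−1.07). XLOC_005367 on chromosome 13, 2655 bp from the cadherin gene *FAT2*, had 62.6 FPKM in BS against 162 in WS (−1.36). The summed keratinocyte markers, given above, were lower in BS as well, and a link between them and these picked members was not tested.

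Few members were listed at 0 in a single library. Of 1861 members above 0 in at least 1 library, 10 (0.537%) were listed at 0 in WS, against 3.09% of all 18608 such loci, and 7 (0.376%) were listed at 0 in BS, against 1.69% of all loci. Gene-symbol loci of at least 2000 bp had 227 at 0 in WS, 120 at 0 in BS and 10239 above 0 in both. Shorter unnamed loci had 60, 50 and 3293. Unnamed loci were assembled from reads, so their shares are not a like comparison with named loci. A listed 0 can be a failed estimate, and no fold change is given for members listed at 0 in 1 library. Those that reached 1 FPKM in the other library, 4 at 0 in WS and 5 at 0 in BS, are nevertheless part of the 2-fold counts above. XLOC_018104 (chr6:6330098-6365480) had 7.75 FPKM in BS in the interval of *IPMK*, an inositol phosphate kinase with 21.0 FPKM in BS against 23.5 in WS. XLOC_019172 (chr7:15806035-15810043) had 2.71 FPKM, XLOC_013337 (chr3:67914513-68029914) 2.61 FPKM, XLOC_014369 (chr3:20234251-20236602) 1.41 FPKM and XLOC_007994 (chr2:9673696-9686710) 0.901 FPKM in BS, all 4 with an interval of their own and all listed at 0 in WS.

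On the other side, XLOC_012549 (chr27:233795-277361) was listed at 0 in BS and had 58.1 FPKM in WS. Its interval holds 4 named loci and lies 3969 bp from *TRA@*, a T cell receptor alpha locus, which had 35.5 FPKM in BS against 21.5 in WS. Of the named loci in the interval, XLOC_012235 was lower in BS too, with 3.81 FPKM in BS against 16.3 in WS. The other named loci there were higher in BS, among them XLOC_012404 with 4.78 FPKM in BS against 1.79 in WS. XLOC_012404 and XLOC_012235 carry the same identifier, so entries of 1 name went opposite ways. Of the others at 0 in BS, those named by the rule were weak, with 3.71 FPKM in WS for XLOC_010661, which shares an interval with *ZNF217*, 2.55 FPKM for XLOC_020614 and 2.18 FPKM for XLOC_014530, which shares an interval with *TXLNB*. The 3 leukocyte markers were all higher in BS by less than 2-fold (summed 117 FPKM in BS against 99.4 in WS), and *CD3E*, a T cell receptor subunit, had 26.8 FPKM in BS against 19.5 in WS.

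The members were spread over the chromosomes roughly by length. Chromosome 1 held 365, chromosome 2 held 251, chromosome 3 held 204, chromosome 4 held 158 and chromosome 5 held 108, or 1.62 to 1.82 members per megabase on these 5. Small chromosomes held more per megabase, up to 5.10 on chromosome 28 and 8.86 on chromosome 25. Of 171 members at 1 FPKM or more on chromosome 2, 7 were at least 2-fold higher and 21 lower in BS. Chromosome 3 had 4 and 15 of 135, and chromosome 27 had 0 and 5 of 11. Chromosome 4 had 8 and 8 of 112, and chromosome 5 had 6 and 4 of 73. Over all loci at 1 FPKM or more, the counts were 75 higher and 111 lower of 1610 on chromosome 2, and 53 and 70 of 1317 on chromosome 3. They were 24 and 37 of 243 on chromosome 27, 71 and 67 of 1214 on chromosome 4, and 51 and 42 of 970 on chromosome 5. Chromosome medians of the members were below those of all loci on 21 of the 27 chromosomes.

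**Figure D4:**
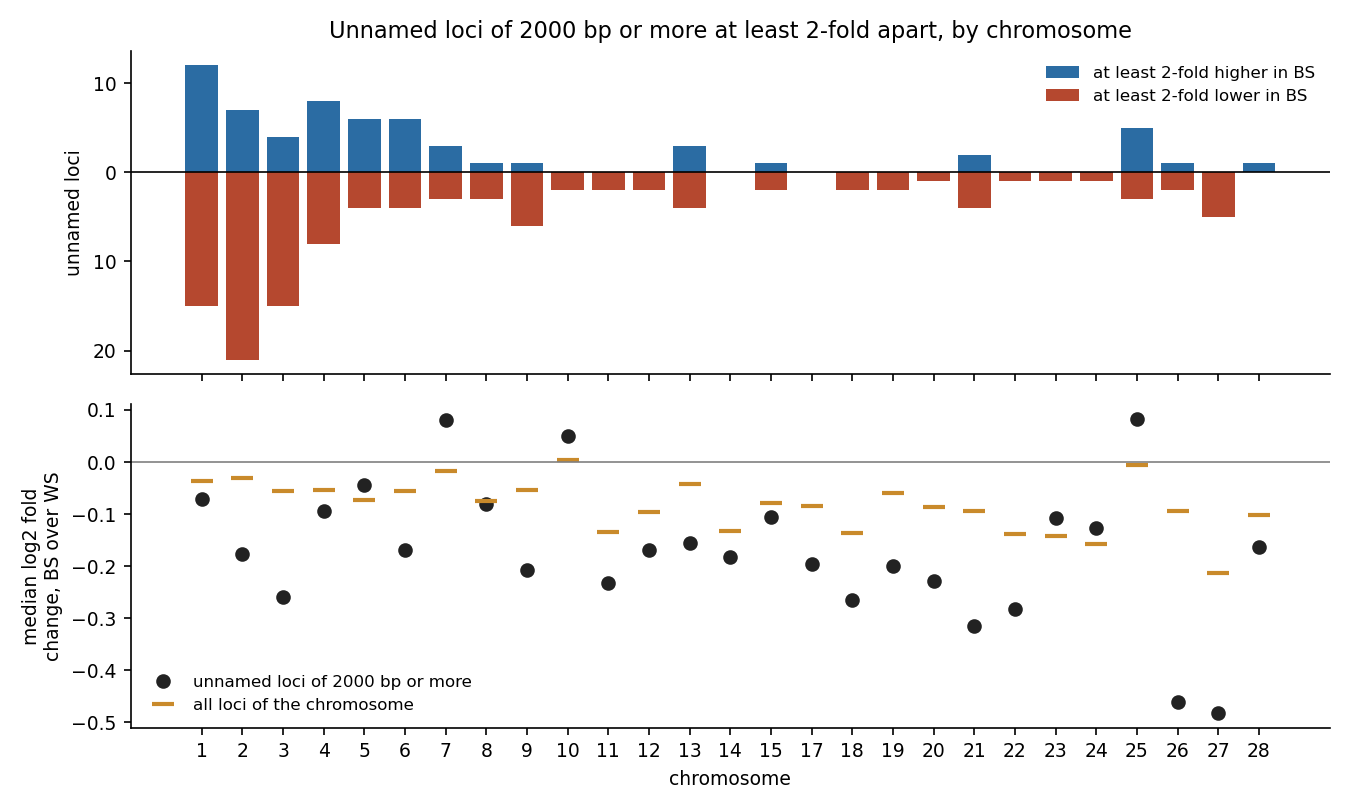
The upper panel gives, for each chromosome, the number of members at least 2-fold higher in BS (blue, upwards) and lower (red, downwards). The lower panel gives the median log2 fold change, BS over WS, of the members (points) and of all loci of the chromosome (dashes), among loci with at least 1 FPKM. Chromosomes 26 and 27, with 13 and 11 members counted, have the lowest medians (−0.46 and −0.48).

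Chromosome 25 had the most members per megabase, though their share of its loci (10.1%) was near that of chromosome 1 (10.7%). In the chicken it carries the epidermal differentiation complex, a cluster of genes for structural proteins of cornifying skin cells and feathers. It held 18 members, and 17 reached 1 FPKM, of which 5 were higher by 2-fold or more in BS and 3 lower. Across all 152 loci of this chromosome at 1 FPKM or more, 42 were higher and 9 lower. The share of higher members was thus near that of all its loci, and the share of lower members above it. XLOC_011784, XLOC_011859, XLOC_011860 and XLOC_011861 lie in a stretch of 54951 bp between *F-KER*, a feather keratin gene, and *S100A11*, a calcium-binding protein gene of the same cluster. They differed among themselves, since XLOC_011784 had 69.2 FPKM in BS against 4.11 in WS, XLOC_011859 5.08 FPKM in BS against 1.03 in WS (log2 fold change 1.58), and XLOC_011861 33.9 FPKM in BS against 80.6 in WS (−1.22), with XLOC_011860 between them at near equal levels. In the RefSeq annotation of GRCg7b, used here only for names and order, 45 protein-coding genes and 10 long noncoding RNAs lie between *F-KER* and *S100A11*.

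Most members lay close to a named gene. The nearest gene symbol was in the same interval for 554 members (29.7%), within 10000 bp for 849 (45.5%), within 100000 bp for a further 394 (21.1%) and beyond for 68 (3.65%). Where there was a gap its median was 4521 bp (n = 1311), with quartiles of 1033 and 19747 bp and a maximum of 615081 bp. Members with a gene symbol in their interval were more often lower than higher in BS (15 higher, 61 lower), whereas those within 10000 bp (23 and 30), within 100000 bp (18 and 19) and beyond (5 and 3) were nearer to balance.

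Differences between BS and WS in a member and in its nearest gene went together only loosely. The Pearson correlation of their log2 fold changes was 0.16 for genes in the same interval (n = 423), 0.20 within 10000 bp (n = 539), 0.34 from there to 100000 bp (n = 217) and 0.42 beyond (n = 37). All pairs share the same 2 libraries, many share a gene, and pairs are not replicates. Of 164 members 2-fold apart whose nearest gene reached 1 FPKM, 10 (6.10%) had that gene 2-fold apart in the same direction, 5 higher and 5 lower. For gene-symbol loci and their nearest gene symbol the count was 33 of 365 (9.04%). Over all pairs, however, the Pearson correlation was 0.21 for members (n = 1216) and 0.064 for gene-symbol loci (n = 8044).

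**Figure D5:**
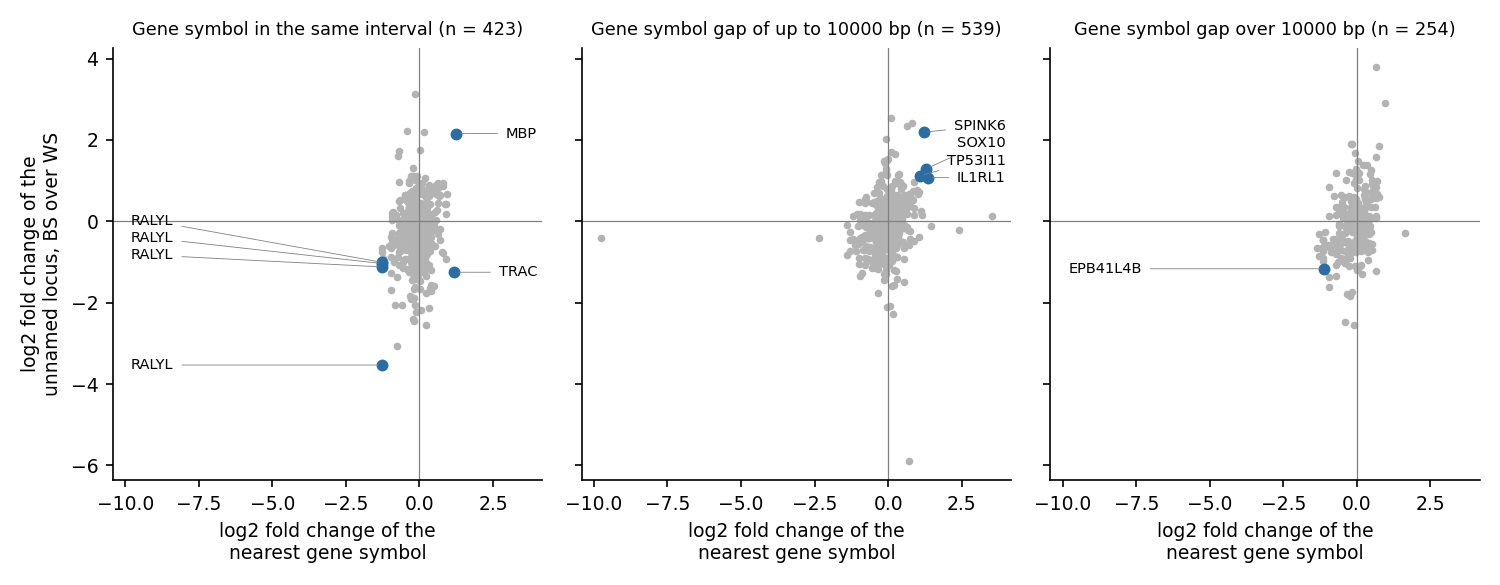
Each point is 1 member, with the log2 fold change, BS over WS, of its nearest gene symbol on the horizontal axis and its own on the vertical axis, by where that gene lies. Pairs with both at least 2-fold apart are blue and carry the name of the gene. 4 of the 6 such pairs in the left panel are the *RALYL* gene and its interval partners.

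Of pairs within 10000 bp and apart in the same direction, the one with the largest smaller change was XLOC_002682 and *SOX10*, the transcription factor of neural crest cells and their descendants, melanocytes and Schwann cells. XLOC_002682 (chr1:52992580-52995398) had 7.75 FPKM in BS against 2.58 in WS, a log2 fold change of 1.29, and *SOX10*, 4332 bp away, had 28.7 FPKM in BS against 11.2 in WS, also 1.29. If 5 FPKM is added to both in place of 1, the member was at 0.75, short of 2-fold. RefSeq lists 1 long noncoding RNA, LOC107053682, between *PICK1* and *SOX10*, the genes on either side, and whether it is this member cannot be read from the table. The 5 melanocyte markers above 0, all higher in BS, move with this pair, and their part in it was not tested. XLOC_005142 was 2417 bp from *SPINK6*, which encodes a Kazal-type serine protease inhibitor known from human skin and had 3.12 FPKM in BS against 0.789 in WS (1.20). The nearest gene symbols on either side of XLOC_005142 that were matched in RefSeq are *SPINK5* and *UBLCP1*, so that *SPINK6* lies between them too. RefSeq lists 3 protein-coding genes between *SPINK5* and *UBLCP1*, *SPINK7* being 1 of them, and these can include genes already named among the deposited loci. Among pairs of a member and its nearest gene symbol, only 1 with both loci at least 2-fold apart had opposite directions. It was XLOC_012548 on chromosome 27 with 0.138 FPKM in BS against 1.71 in WS, and *TRAC*, the T cell receptor alpha constant gene in the same interval, with 19.2 FPKM in BS against 7.94 in WS. Loci named by an identifier are not part of this count.

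Members were also looked up next to 4 lists of skin genes (pigment, epidermis, dermis and muscle). Over the whole table, 1232 gene symbols were the nearest of a member, and 13108 loci had a gene symbol. Of listed genes in the table, 4 of 24 for pigment, 3 of 18 for epidermis, 2 of 18 for dermis and 1 of 10 for muscle were. The lists are too short to set their shares apart from that of all gene symbols. The 4 pigment genes were the nearest gene of 5 members, of which 1 was at least 2-fold higher (XLOC_002682) and 1 lower. The lower one, XLOC_009088 (chr2:64460629-64464931), had 5.17 FPKM in BS against 11.7 in WS (log2 fold change −1.04), 3108 bp from *TFAP2A*, a transcription factor of neural crest and epidermis at 42.2 FPKM in BS against 84.7 in WS (−0.99). It fell short of 2-fold under each scaling. Its neighbor XLOC_009089 had 0.442 FPKM in BS against 0.758 in WS. XLOC_017675 (chr5:47195694-47198684), 100 bp from *SLC24A4*, an ion exchanger gene linked to pigmentation in humans, had 1.47 FPKM in BS against 0.813 in WS, and *SLC24A4* 1.04 FPKM in BS against 0.719 in WS. XLOC_002185, 179355 bp from *EDNRB*, an endothelin receptor gene, had 2.51 FPKM in BS against 1.06 in WS.

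Of 18 epidermis genes in the table, 3 were the nearest gene of 4 members and 1 of these was 2-fold apart. XLOC_012512 (chr27:4266509-4268647), 5371 bp from *KRT14*, a keratin of basal keratinocytes, had 2.55 FPKM in BS against 6.87 in WS (log2 fold change −1.15, or −0.65 if 5 FPKM is added instead of 1), and *KRT14* had 374 FPKM in BS against 543 in WS (−0.54). XLOC_011436 and XLOC_011483 shared the interval of *GRHL3*, a transcription factor of the epidermal barrier, with 5.59 FPKM in BS against 5.97 in WS, and 0.687 FPKM in BS against 1.56 in WS, while *GRHL3* had 5.51 FPKM in BS against 9.45 in WS. Of 18 dermis genes in the table, *TBX15*, a developmental transcription factor, had XLOC_002863 in its interval, with 5.69 FPKM in BS against 4.97 in WS. Near the muscle genes, XLOC_011004 had 4.56 FPKM in BS against 3.48 in WS and XLOC_011076 11.3 FPKM in BS against 14.4 in WS, 408 bp from a locus named *TTN*. None of the dermis or muscle neighbors was 2-fold apart.

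What lies between the flanking genes in RefSeq was listed for members with an interval of their own. Of 1000, 980 lay between gene symbols that RefSeq of GRCg7b holds once, 962 of them on the same chromosome there and 635 with a gap of similar size (0.67 to 1.5 times). For 377 of the 635 (59.4%) at least 1 long noncoding RNA is annotated between the flanking genes, for 361 at least 1 protein-coding gene, and for 124 neither. The gap between flanking genes was long, with a median of 104117 bp. Stretches without a member were not counted, so whether 59.4% is more than elsewhere is unknown. XLOC_019172 was among these 124, between *UBE2E3* and *CWC22*. Between *TMEM168* and *IFRD1*, the matched gene symbols around XLOC_001393, RefSeq lists the long noncoding RNA LOC107052883 and the gene *LSMEM1*. *C7ORF53*, the nearest gene symbol of XLOC_001393, lies in this stretch among the deposited loci, and *LSMEM1* can be the same gene under another name. A protein-coding gene counted between flanking genes can therefore be one already named among the deposited loci. How many of the 361 hold only such genes was not counted. Between *CCDC122* and *TSC22D1*, around XLOC_002217, RefSeq lists 3 long noncoding RNAs and no protein-coding gene. A shared place between 2 genes does not identify a member, and none is given a name from it.

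At the limit of 2000 bp, members just inside and loci just outside were weak alike. XLOC_009043 (2000 bp) had 0.955 FPKM in BS against 0.627 in WS, XLOC_007021 (2002 bp) 0.867 FPKM in BS against 0.683 in WS, and XLOC_010071 (2002 bp) 1.08 FPKM in BS against 0.827 in WS. Just outside, XLOC_004996 (1992 bp) had 0.812 FPKM in BS against 0.506 in WS, XLOC_014754 (1991 bp) 0.813 FPKM in BS against 0.977 in WS, and XLOC_007039 (1990 bp) 0.602 FPKM in BS against 1.67 in WS. The longest intervals are shared ones, so that their span is not that of the members. XLOC_003052, in the interval of the dystrophin gene *DMD* (1069327 bp), had 0.577 FPKM in BS against 1.41 in WS, and XLOC_014298, XLOC_014299 and XLOC_014300, in an interval of 7 loci (845990 bp) that holds *FLRT3* and a locus with the merged name of *MACROD2*, had 1.24, 0.684 and 0.320 FPKM in BS against 1.94, 4.47 and 2.19 FPKM in WS.

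Among members with an interval of their own, longer intervals had higher levels and a similar balance of directions. The 722 members of 2000 to 5000 bp had medians of 0.952 FPKM in BS against 0.944 in WS, with 19 at least 2-fold higher and 17 lower in BS among 418 at 1 FPKM or more. The 278 members of 5000 bp or more had medians of 2.13 FPKM in BS against 2.10 in WS, with 13 higher and 12 lower among 236. Over all members, 27 were at least 2-fold higher and 50 lower in BS of the 357 at 5 FPKM or more. Between 1 and 5 FPKM, 34 were higher and 63 lower of 959. Whether abundant members were more often apart cannot be read from these shares, since adding 1 FPKM to both libraries understates weak loci. With 0.1 FPKM added in place of 1, the counts over all members were 144 higher and 236 lower, against 61 and 113.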

How the data were processed

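RNA-Seq libraries of pooled BS and WS skin RNA were sequenced by the authors on an Illumina HiSeq 2000, 1 library per color. The deposited table gives each locus its FPKM in both libraries, which the authors computed from reads mapped to assembled transcripts. Bowtie is named in the methods, and Cuffdiff and galGal4 in the submitters' processing notes. The deposited columns of fold change, p value and q value, and a second table with the authors' calls, hold the study's own comparison and were not used. The files used here give no counts, so the depth behind each value is unknown and no counting interval could be computed. Members were loci without a name in an interval of at least 2000 bp, outside the 2 left-out regions, without a failed estimate. Members, gene lists and rules were chosen with earlier results of these data known.

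Log2 fold changes were computed as BS over WS with a pseudocount of 1 FPKM, and loci that reached 1 FPKM in neither library were left out of counts. Loci at least 2-fold apart were counted without a test. Members with the same interval as another locus were separated from the rest. The gap to the nearest gene symbol was measured between interval ends. Names of 21 loci had been turned into dates, and these were not counted as gene symbols. The RefSeq annotation of GRCg7b holds 1080 of the 1232 nearest gene symbols and served for names and order only. Named members were the 10 furthest apart in each direction, above 0 in both libraries and with at least 5 FPKM in the higher one, the 6 most abundant in each library, up to 5 per direction listed at 0, the 4 longest, the 3 on each side of the 2000 bp limit, up to 10 near listed genes and up to 6 pairs 2-fold apart together, and further members of the same intervals, clusters or neighborhoods were picked after their values were seen. Of the 10 furthest lower, 1 is not reported here. Alternatives were pseudocounts of 0.1 and 5, other filters, spans and folds, and 3 scalings. The counting procedure was tested on simulated data. Python 3.11.15, pandas 2.3.3, numpy 2.4.6, scipy 1.17.1 and matplotlib 3.10.9 were used.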

Additional observations from a re-analysis of the deposited data

How the results depend on the processing

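Of 62 values computed for main counts and medians under alternatives, 41 stayed the same and 21 moved. A count or share stayed the same within 1.5 times the value given, and a median within 0.1 with its sign kept. These labels did not follow whether higher or lower members prevailed, and that balance did differ between settings. The count of members at least 2-fold higher in BS (61) was 144 with a pseudocount of 0.1, 17 with 5, 27 at 5 FPKM or more, 40 for spans of 5000 bp or more, 32 with an interval of their own and 11 at 4-fold. The count of members lower in BS (113) was 236 with a pseudocount of 0.1, 31 with 5, 50 at 5 FPKM or more, 29 with an interval of their own and 18 at 4-fold. At 5 FPKM or more, 14.0% of members were lower in BS, and members with their own interval numbered 16 higher and 19 lower, those in shared intervals 11 and 31, an alternative added after seeing the data. The median log2 fold change was −0.027 with equal totals without the 50 most abundant loci, and 4 members at 0 in WS had 1 FPKM or more in BS.

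Locus numbers run along each chromosome 3 times, and the third run holds almost only unnamed loci (4413 of 4425). What the runs stand for is not given in the sources used here. By an alternative added after seeing the data, members of the first and second run numbered 32 higher and 35 lower in BS, and those of the third 29 higher and 78 lower. In the third run, 21 higher and 75 lower were in shared intervals and 8 higher and 3 lower had an interval of their own. In the first and second run, shared intervals held 8 higher and 9 lower, and 24 higher and 26 lower had an interval of their own. The excess of lower members in shared intervals was thus confined to the third run. Of 280 values of named members under alternatives, 209 stayed the same, and 1 changed sign (XLOC_011436, −0.081 as given and 0.034 with equal totals), a member that was not 2-fold apart. No paired analysis was possible because there was 1 library per color. With no replicate and no counts, neither the spread between birds nor the counting error of a weak locus is known, and loci near 1 FPKM are the least certain.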
